A study of Homo sapiens with 12 samples.

Results

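The host tissue of 12 human breast tumour xenografts was compared between tumours taken after a recovery period and tumours taken when treatment ended. The tumours were grown from MCFDCIS, a human breast cell line used to model ductal carcinoma in situ, by placing its cells under the skin of athymic nude mice. After 2 weeks of growth, palbociclib, which blocks the kinases CDK4 and CDK6 that drive entry into S phase, was given every day by mouth at 50 mg per kg, or vehicle was given. Of the 12 tumours, 3 were taken after 2 weeks of palbociclib and 3 after 2 weeks of vehicle (the initial tumours), and 3 of each arm were taken after the same treatment and a further recovery period of unstated length (the recovery tumours). Host RNA was defined as the counts of identifiers starting with ENSMUSG, the Ensembl prefix of mouse genes. These were 54146 identifiers, beside 58243 human ones in the same libraries, and 13055 had enough counts to be tested.

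A xenograft grows with tissue that comes from the animal. Fibroblasts lay down the matrix around the tumour cells, endothelial cells and pericytes form the vessels, and macrophages and neutrophils enter from the blood, while athymic mice lack most mature T cells. In a mixed library the species of a read separates these cells from the tumour cells. The files do not pair mouse identifiers with gene names, so markers of these cell types could not be looked up and genes are given by identifier only. Their positions in the mouse genome are not given here. Fewer cells of a type and less RNA per cell cannot be told apart in bulk tissue. Recovery tumours had also grown for longer and were no longer dosed. Within an arm, or with drug as a block, these differences cannot be told apart from each other. Vehicle tumours never had the drug, so the difference of the change between the arms, given below, sets the same period with and without its withdrawal side by side.

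The host's share of the libraries overlapped between the times. Mouse genes took 18.2% ± 3.59 of gene counts in initial tumours and 18.5% ± 2.83 in recovery tumours (SD, n = 6 each). Initial tumours had a lowest share of 15.5%, a median of 17.2% and a highest of 25.4%, and recovery tumours 14.2%, 18.5% and 21.6%, so the ranges overlapped. The difference of 0.293 percentage points gave p = 0.845 in an exact two-sided permutation test of stage within arm, with 400 arrangements and 4 library measures tested (adjusted p = 0.975). The smallest p this test allows is 0.005. The sign turned when any 1 of palbociclib recovery tumours 2 and 3 or vehicle initial tumours 1 and 2 was left out, with differences from -0.327 to 1.73 over the 12 omissions. Stage means were pooled over the arms, so each omission also left the stages unequal in drug. The turns of sign therefore do not show an effect of the tumour left out. By arm the share went from 20.0% ± 4.69 to 20.7% ± 1.44 in palbociclib tumours and from 16.4% ± 0.963 to 16.3% ± 1.93 in vehicle tumours (SD, n = 3).

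Mouse counts ranged from 1391023 in vehicle initial tumour 3 to 3483342 in palbociclib initial tumour 3. Between 19133 and 22813 mouse identifiers had at least 1 count. The 10 mouse genes of highest mean share held 12.2% to 12.9% of mouse counts in palbociclib initial tumours and 11.03% to 11.2% in palbociclib recovery tumours, which did not overlap. In vehicle tumours the share was 10.2% to 12.3% at first and 11.8% to 12.6% after recovery, which did. Over both arms the recovery mean was lower by 0.389 percentage points (11.64% against 12.03%), with exact permutation p = 0.48 (adjusted p = 0.96).

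**Figure D1:**
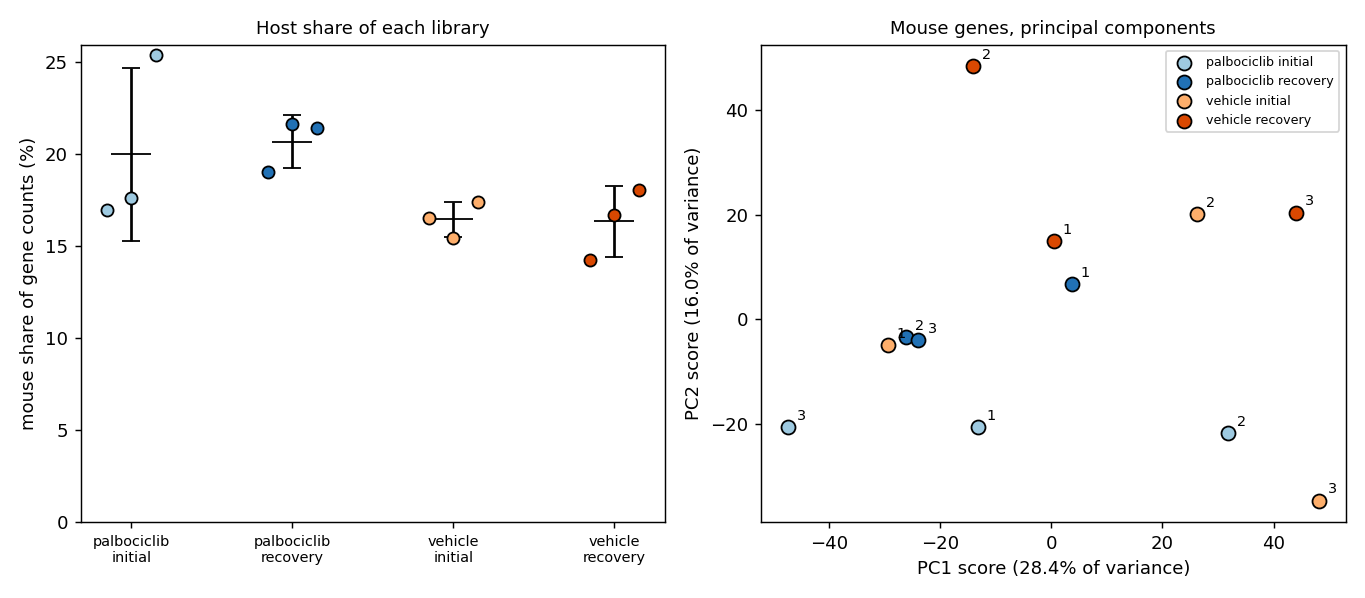
Left, the share of gene counts assigned to mouse genes (%) in each of the 12 tumours, with the mean and SD (n = 3) of each group. Right, the scores of the 12 tumours on the first principal components of 13055 mouse genes (log2 CPM), numbered by replicate. The shares run from 14.2% to 25.4% in overlapping groups. Tumours of both stages lie at both ends of the first component. On the second, all initial tumours except vehicle initial tumour 2 lie below all recovery tumours.

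Most of the variance of the mouse genes lay between tumours of the same group. Stage took 9.66% of it, drug 12.3%, their combination 7.28% and differences between tumours of a group 70.7%. Each of the first 3 terms has 1 of the 11 degrees of freedom, and differences within groups took 8.84% per degree of freedom, so stage took little more than the spread within groups gives. For 6 of the 12 tumours the most similar other tumour, by Pearson correlation of log2 CPM, was of the same stage, and for 3 of them it was of the same group, all palbociclib recovery tumours. A stage held 6 of the 12 tumours and a group 3, so counts near these can arise without any grouping. Correlations of tumour pairs lay between 0.854 and 0.960. The first principal component held 28.4% of the variance, and tumours of both stages lay at both ends, from -47.4 in palbociclib initial tumour 3 to 48.1 in vehicle initial tumour 3. On the second, palbociclib tumours lay at -20.6, -21.9 and -20.7 initially and at 6.63, -3.41 and -4.03 after recovery, without overlap. Vehicle tumours overlapped, at -5.04, 20.1 and -34.7 initially and at 14.9, 48.4 and 20.4 after recovery. All initial tumours except vehicle initial tumour 2 thus lay below all recovery tumours on the second component. Its relation to stage was not tested. Vehicle recovery tumour 2 lay apart on it, at 48.4.

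The first component followed the number of mouse counts. Over 12 tumours Pearson's r was -0.83 (permutation p = 0.00092, adjusted over 3 relations p = 0.0028) and Spearman's rho -0.83 (permutation p = 0.0014, adjusted p = 0.0032). Without the 2 tumours farthest from the median count r was -0.77, and within initial and within recovery tumours it was -0.87 and -0.80. With the mouse share in place of the count, r was -0.52 and rho -0.27 (permutation p = 0.078 and 0.39, adjusted p = 0.078 and 0.39), and r was -0.12 without the 2 farthest. On the 25% of genes with the highest level, the component and the count had r = -0.70 and rho = -0.81 (permutation p = 0.012 and 0.0021, adjusted p = 0.018 and 0.0032), with r = -0.74 without the 2 farthest and r = -0.69 and -0.67 within the stages. Mouse count totals ran from 1686708 to 3364147 in recovery tumours, within the range of initial tumours.

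With drug as a block, 3 mouse genes rose and 3 fell from the end of treatment to recovery, which is 0.046% of the 13055 tested (edgeR quasi-likelihood, p adjusted over all of them by the method of Benjamini and Hochberg). Each direction held 0.023%. At an unadjusted p under 0.05 there were 1253 genes, 612 higher and 641 lower, or 9.6% of those tested. The adjusted p was under 0.1 for 13 genes and under 0.25 for 84. In 41 genes all 6 recovery tumours lay above all 6 initial tumours (0.314% of genes tested), and in 39 all lay below (0.299%), together 80 genes (0.613%). DESeq2 called 73 genes, 44 higher and 29 lower, among them the 6.

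Of the genes that passed, ENSMUSG00000029641 had the largest rise. Its level, in CPM (counts scaled to the mouse total of each library), was 11.1, 5.14 and 3.75 in palbociclib initial tumours 1 to 3 and 4.66, 5.60 and 5.66 in vehicle initial tumours. After recovery it was 23.1, 33.5 and 36.3 CPM in palbociclib tumours and 18.5, 21.3 and 18.8 CPM in vehicle tumours. All 6 recovery tumours were above all 6 initial tumours, and the palbociclib recovery tumours were above the vehicle recovery tumours. Genes were called on these same levels, so separation of the stages, here and for the genes below, is a description. The log2 fold change was 2.09 ± 0.24 (SE, edgeR adjusted p = 0.0039), a 4.26-fold rise with a 95% interval of 1.57 to 2.61 on the log2 scale. The initial values rest on few reads, with 8 counts in each of vehicle initial tumours 2 and 3. The gene passed in all 12 fits that left out 1 tumour.

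ENSMUSG00000067818 also rose, from a higher level. In palbociclib tumours it was at 76.1, 76.6 and 77.7 CPM initially and at 136, 117 and 192 CPM after recovery. In vehicle tumours it was at 76.4, 137 and 94.8 CPM initially and at 200, 240 and 203 CPM after recovery. Within each arm every recovery tumour was above every initial tumour, while over both arms vehicle initial tumour 2 lay above palbociclib recovery tumours 1 and 2. The log2 fold change was 1.01 ± 0.14 (SE, edgeR adjusted p = 0.016). The call was lost without palbociclib initial tumour 2 and without vehicle recovery tumour 2 (edgeR adjusted p = 0.061 and 0.091), with fold changes of 1.02 and 0.96. The other gene that rose was at 40.1 to 53.9 CPM in initial tumours and at 62.1 to 86.3 CPM in recovery tumours, without overlap. Its change was 0.60 ± 0.09 on the log2 scale (SE, edgeR adjusted p = 0.029), and it passed in 3 of the 12 fits that left out 1 tumour.

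**Figure D2:**
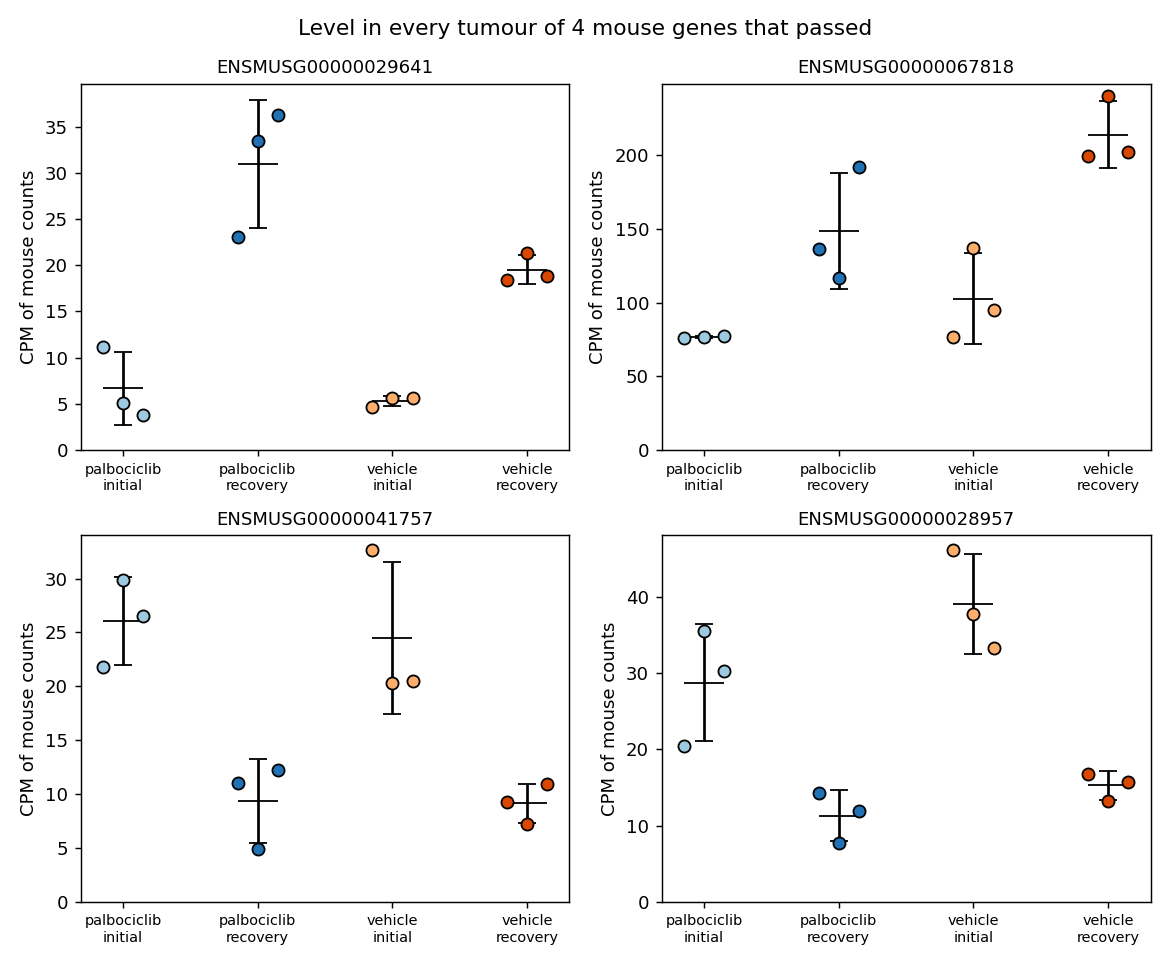
CPM of mouse counts in each of the 12 tumours for 4 mouse genes that passed, the upper pair higher and the lower pair lower after recovery, with the mean and SD (n = 3) of each group as horizontal and vertical bars. Within each arm initial and recovery tumours do not overlap in any of the 4. The genes were called on these same values, so this separation follows largely from the choice.

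Of the genes that passed, ENSMUSG00000041757 had the largest fall. It was at 21.8, 29.8 and 26.6 CPM in palbociclib initial tumours and at 32.6, 20.3 and 20.5 CPM in vehicle initial tumours. After recovery it was at 10.997, 4.89 and 12.2 CPM in palbociclib tumours and at 9.23, 7.24 and 10.9 CPM in vehicle tumours. All recovery tumours were below all initial tumours, and the arms overlapped at both times. The log2 fold change was -1.46 ± 0.22 (SE, edgeR adjusted p = 0.025). It passed in 6 of the 12 fits that left out 1 tumour, where its fold change ran from -1.57 to -1.31 and its adjusted p reached 0.099. The call was lost without palbociclib initial tumour 2 or 3, palbociclib recovery tumour 1, vehicle initial tumour 1 or vehicle recovery tumour 1 or 2.

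ENSMUSG00000028957 went from 20.4, 35.5 and 30.3 CPM to 14.3, 7.68 and 11.9 CPM in palbociclib tumours. In vehicle tumours it went from 46.1, 37.8 and 33.2 CPM to 16.8, 13.2 and 15.8 CPM. No recovery tumour reached the lowest initial tumour. The log2 fold change was -1.35 ± 0.18 (SE, edgeR adjusted p = 0.011), and the gene passed in 11 of the 12 fits that left out 1 tumour, the exception being vehicle recovery tumour 2 (adjusted p = 0.065). The other gene that fell was at 83.0 to 123 CPM in initial tumours and at 30.7 to 67.9 CPM in recovery tumours. Its log2 fold change was -1.08 ± 0.17 (SE, edgeR adjusted p = 0.042), and it passed in 2 of the 12 fits.

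**Figure D3:**
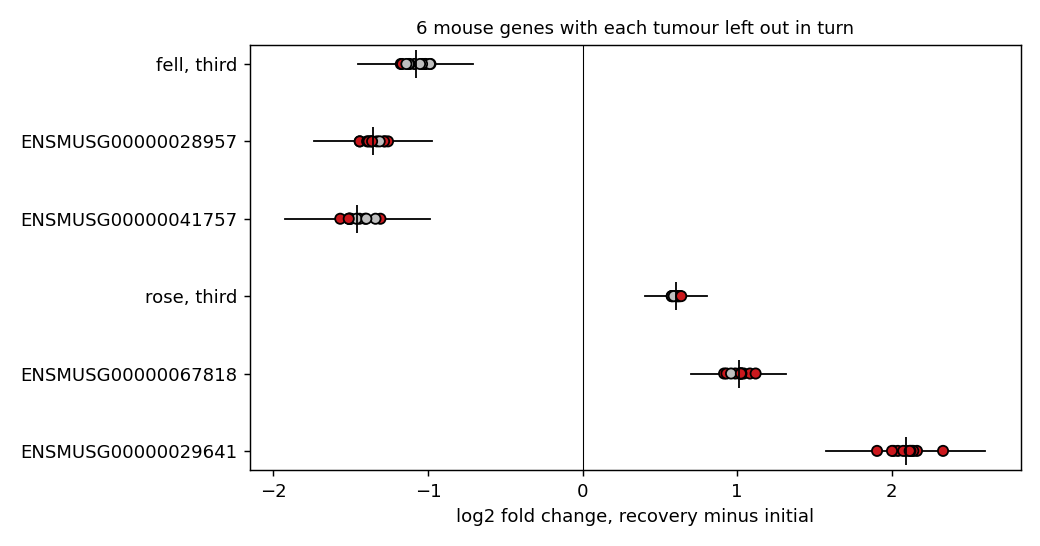
Log2 fold change (recovery minus initial) of the 6 mouse genes that passed, each refitted without 1 of the 12 tumours. Vertical ticks mark the value with all tumours and horizontal lines its 95% interval, with red points for fits in which the gene passed and grey points for fits in which it did not. The points of each gene lie on 1 side of 0, from 1.90 to 2.33 for ENSMUSG00000029641 and from -1.44 to -1.26 for ENSMUSG00000028957. The genes were called on the same tumours, so their side of 0 follows largely from the choice.

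The number of genes that passed depended on single tumours. It was 1 without vehicle recovery tumour 2, 2 without palbociclib initial tumour 2, 3 without vehicle initial tumour 1 and 22 without vehicle initial tumour 2. Over the 12 such fits between 1 and 6 of the 6 genes passed. Vehicle initial tumours 2 and 3 had the highest shares of mitochondrial genes in their human counts, 5.32% and 11.2% against 0.674% to 2.64% in the other 10 libraries. With both left out, and the 1 remaining vehicle initial tumour assumed to vary like the others, 41 genes passed, including all 6. In the 9 tumours whose codes in the titles hold a number starting with 7, a choice made after seeing the data that leaves 1 vehicle recovery tumour, no gene passed by edgeR and 1192 had an unadjusted p under 0.05. ENSMUSG00000029641, ENSMUSG00000067818, ENSMUSG00000041757 and ENSMUSG00000028957 then had log2 fold changes of 2.12, 0.91, -1.31 and -1.29 (edgeR adjusted p = 0.12, 0.19, 0.26 and 0.19).

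For most mouse genes the data bounded the change. The log2 fold changes of all 13055 genes had a median of -0.01, and 5% lay below -0.56 and 5% above 0.42. The median SE was 0.18. For 10596 genes (81.2%) the 95% interval, approximate and not adjusted for the number of genes, lay within a 2-fold change in either direction. Estimates beyond 2-fold numbered 244, with 74 higher and 170 lower, and 197 of these were among the 25% of genes with the lowest level. In that part of the range the median SE was 0.36 and 43% of intervals lay within 2-fold, against 0.11 and 96.9% in the 25% with the highest level. The genes that passed were 0, 3, 1 and 2 in these 4 parts from the lowest to the highest level. The median change was -0.11 in the lowest part and 0.01 in each of the other parts.

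The most abundant host genes held no call. The 100 mouse genes of highest mean level held between 24.5% and 29.3% of mouse counts of a tumour. None passed by edgeR, with a smallest adjusted p of 0.20. Positive values were found for 52 and negative values for 48, with a median of 0.03 and a range from -0.85 to 0.58, so none had an estimate beyond 2-fold. The interval lay within 2-fold for 95 of the 100.

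**Figure D4:**
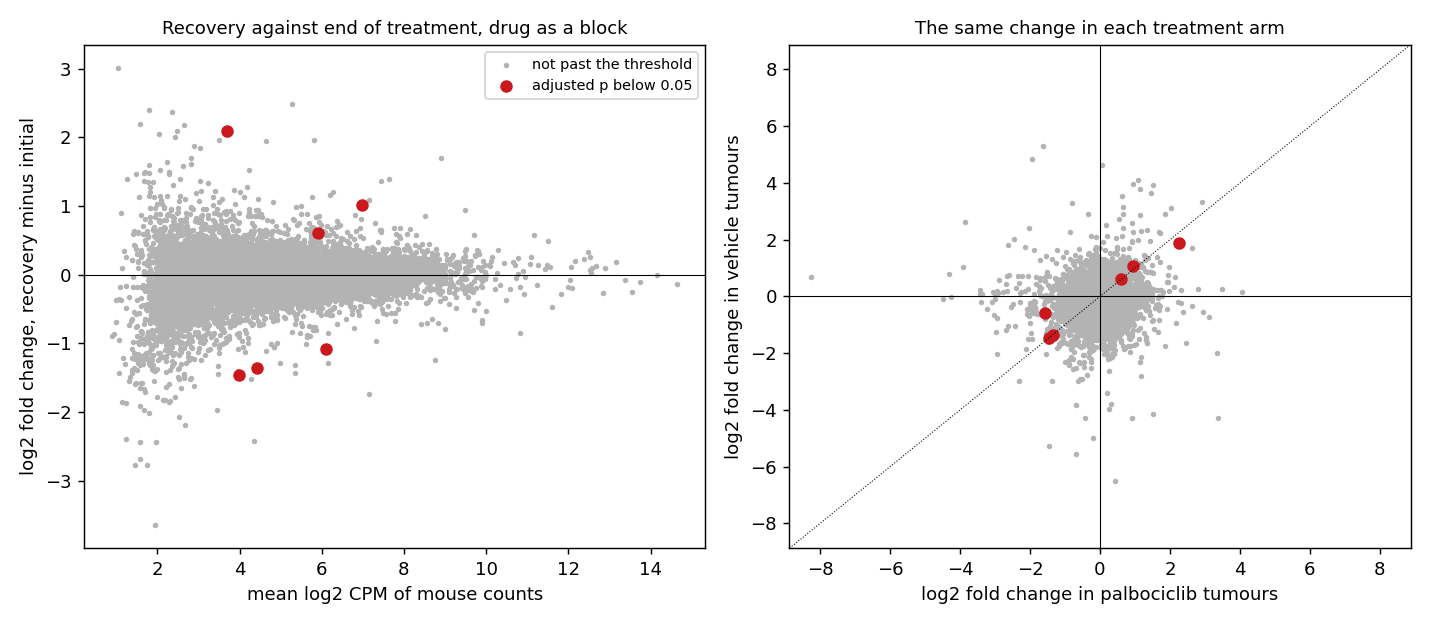
Left, log2 fold change (recovery minus initial, drug as a block) against mean log2 CPM for the 13055 mouse genes tested, with the 6 that passed in red. Right, the log2 fold change in vehicle against palbociclib tumours, with the dotted line marking equal values. The 6 genes were called on the change over both arms, so their place in the right panel follows from the choice. The sign is the same in both arms for 56.1% of all genes.

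The arms were then taken separately, in a fit with 4 group means. They share no tumour. In palbociclib tumours, where dosing with the drug had stopped, 1 gene rose and 2 fell (0.023% of 13055 tested by edgeR). There 730 genes (5.59%) had an unadjusted p under 0.05, and DESeq2 called 20. In vehicle tumours none passed by edgeR (0%), 1267 (9.71%) had an unadjusted p under 0.05, and DESeq2 called 29. The smallest edgeR adjusted p was 0.0033 in palbociclib and 0.28 in vehicle tumours. The vehicle count was 16 without vehicle initial tumour 2 and 1 without vehicle recovery tumour 3. The palbociclib count was 0 without palbociclib recovery tumour 2, 5 without vehicle recovery tumour 1, and 1 without palbociclib initial tumour 2 or 3, vehicle initial tumour 1, 2 or 3, or vehicle recovery tumour 2 or 3.

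The values of the 4 genes given by identifier follow for each arm. Their rule asked for the same sign in both arms, so that sign is a description. ENSMUSG00000029641 was at 2.25 ± 0.33 in palbociclib and 1.89 ± 0.37 in vehicle tumours on the log2 scale (SE). ENSMUSG00000067818 was at 0.95 ± 0.21 and 1.07 ± 0.21, ENSMUSG00000041757 at -1.46 ± 0.31 and -1.45 ± 0.33, and ENSMUSG00000028957 at -1.34 ± 0.26 and -1.37 ± 0.27. Of these values only that of ENSMUSG00000029641 in palbociclib tumours passed within its arm (edgeR adjusted p = 0.048). The differences between the arms (palbociclib minus vehicle, SE) were 0.36 ± 0.50, -0.11 ± 0.29, -0.02 ± 0.47 and 0.02 ± 0.39 (edgeR adjusted p = 0.95, 0.97, 1.00 and 1.00).

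Both other calls in palbociclib tumours were falls. The third gene that fell with drug as a block was at -1.56 ± 0.17 in palbociclib tumours (SE, edgeR adjusted p = 0.0033) and at -0.59 ± 0.17 in vehicle tumours (edgeR adjusted p = 0.37). It went from 100.2 ± 16.2 to 33.9 ± 3.07 CPM in the first and from 97.4 ± 21.8 to 64.8 ± 2.69 CPM in the second (SD, n = 3). The difference of -0.97 ± 0.24 had an unadjusted edgeR p of 0.0012 and did not pass over all genes (edgeR adjusted p = 0.74). The remaining gene was at -1.85 ± 0.28 in palbociclib tumours (edgeR adjusted p = 0.048) and at -0.36 ± 0.28 in vehicle tumours, with a difference of -1.50 ± 0.40 that did not pass (edgeR adjusted p = 0.83).

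No gene's change differed between the arms by edgeR's test of the difference (0% of 13055, smallest adjusted p = 0.72). An unadjusted p under 0.05 was found for 695 genes (5.32%), and DESeq2 called 5. The count was 1 without palbociclib initial tumour 1 and 1 without vehicle recovery tumour 3. This test was less precise, with a median SE of 0.35, and the approximate 95% interval of the difference lay within 2-fold for 6171 genes (47.3%). Across genes the changes in the arms had Pearson's r = 0.10 and Spearman's rho = 0.14 over 13055 genes, which share tumours and normalisation and are not independent. The sign was the same in both arms for 56.1% of all genes, for 66.0% of the 730 genes with an unadjusted p under 0.05 in palbociclib tumours and for 63.5% of the 1267 in vehicle tumours. In 125 genes the unadjusted p was under 0.05 in both arms, and 101 of them had the same sign, 57 higher and 44 lower after recovery.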

How the data were processed

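The authors deposited raw counts per Ensembl gene, human and mouse rows in 1 file per tumour, per the file headers. CASAVA 1.8, cutadapt, STAR, edgeR and the builds GRCh38 and GRCm38 are listed, without roles, per the submitters' processing notes. The counting program, its strand setting and the handling of reads that fit both species were not given in the sources used here, so overlapping, antisense and near-identical genes are uncertain. The 4 rows of each file that name no gene held 37.0% to 69.1% of all counts and were left out, as were 317 repeated mouse rows with identical counts. Mouse counts came to 1391023 to 3483342 per tumour, and 10 counts equal 2.89 to 7.07 CPM.

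Mouse rows were analysed in R 4.3.3 with edgeR 4.0.16: library size from mouse rows, TMM scaling, filterByExpr (minimum count 10, minimum total 15), a robust quasi-likelihood fit of drug plus stage, and Benjamini-Hochberg adjustment over 13055 genes with a threshold of 0.05. Arms and their difference came from a fit with 4 group means. SE came from the fold change and F. It is approximate and can be far too large where the change is near 0, so the intervals need not match the p-values. The fit was tested on simulated data. Nothing says that tumours of a group came from different mice, so the p-values reflect only how these tumours varied, which may be technical. Pairs within a group had chi-square per degree of freedom of 4.31 to 12.3, so no pair was 1 library deposited again with only counting noise between the files.

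Members, lists and rules were chosen with earlier results of these data known. Named genes were those that passed, had a mean log2 CPM of at least 1 and the same sign in both arms, in order of fold change, limited to 2 identifiers per direction because 0 of 54146 mouse identifiers had a symbol in the tables used. For that reason 26 lists of mouse symbols were not used, nor were the parts of the rule that rest on them. Alternatives were DESeq2 1.42.0, limma 3.58.1 (voom), other scaling and filters, the mouse share as covariate, stage without drug, and each tumour left out.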

Additional observations from a re-analysis of the deposited data

Results flagged for a closer look

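For 10 measures, the 6 initial and the 6 recovery values were each searched for a tumour far from the other 5. This was found in 4 of the 20 sets, all initial. Chance gives about 1 in 20 for values drawn from 1 population. These sets pool the arms, share tumours and overlap in what they measure, so the 4 cannot be read as an excess. ENSMUSG00000067818 was at 137 CPM in vehicle initial tumour 2, above 76.1 to 94.8 CPM in the others. The mouse share of gene counts was 25.4% in palbociclib initial tumour 3, against at most 17.6% in the others, and the same tumour had 22813 mouse identifiers with a count. The 10 most abundant mouse genes held 10.2% of mouse counts in vehicle initial tumour 3, the lowest share of the 12 tumours.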

How the results depend on the processing

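Each of the 6 genes that passed kept its direction under all 22 alternatives, and each change in call is a loss of significance. The genes were called on the same tumours, so the kept direction follows largely from the choice. With DESeq2's size factors, the stricter filter, the mouse share as covariate, the average of the arm contrasts and limma voom the count with drug as a block was 6 to 8. Without a low-count filter the counts were 74 with drug as a block, 164 in palbociclib tumours, 211 in vehicle tumours and 73 for the difference, and of the 74 genes 72 were among the 13055 tested before. By DESeq2 they were 73, 20, 29 and 5. With vehicle initial tumour 1 as the only vehicle initial tumour they were 41, 1, 34 and 1. With tumour codes starting with 7 they were 0 with drug as a block and 1 in palbociclib tumours. With stage alone, 3 genes passed. The causes were not tested. Leaving out each tumour in turn gave 1 to 22 with drug as a block, 0 to 5 in palbociclib tumours, 0 to 16 in vehicle tumours and 0 to 1 for the difference. As a share of all rows, host counts were 1.32 percentage points higher after recovery (exact permutation p = 0.185). The share without mitochondrial genes was not run, since mouse ones could not be picked out. No paired analysis was possible because the labels give no replicate numbers that pair tumours. Mouse counts, 14.2% to 25.4% of the gene counts of each library, limit what can be seen in genes of low level.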

Other observations

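A table of mouse cell cycle marker identifiers that is part of scran 1.30.0, derived from mouse embryonic stem cells, allowed a look at host cell division without gene names. It was taken up after the counts had been seen and is given as a description. Identifiers that stand first and never second in the marker pairs of a phase were used. Of 107 such G2/M identifiers 102 were tested and none passed with drug as a block by edgeR. Their median log2 change from the end of treatment to recovery was 0.16 in palbociclib tumours, with 72 above 0, and 0.01 in vehicle tumours, with 51 above 0, beside medians of 0.00 and -0.01 over all genes tested. The mean log2 CPM of these 102 genes was 4.40, 4.38 and 4.32 in palbociclib initial tumours and 4.62, 4.43 and 4.61 in palbociclib recovery tumours. It was 4.59, 4.69 and 4.62 in vehicle initial and 4.53, 4.76 and 4.62 in vehicle recovery tumours. The palbociclib initial tumours were thus the lowest 3 of the 12. Over the 12 fits that left out 1 tumour the median was between 0.10 and 0.21 in palbociclib tumours and between -0.03 and 0.10 in vehicle tumours. Without both vehicle initial tumours of high human mitochondrial share (tumours 2 and 3), it was 0.18 in palbociclib and 0.17 in vehicle tumours over 103 genes. That vehicle median rests on vehicle initial tumour 1 alone. Without only vehicle initial tumour 2 or only tumour 3, the vehicle median was 0.07 and 0.01. The 80 G1 identifiers tested had medians of 0.01 and 0.06 in the arms, and the 153 S phase identifiers 0.04 and 0.04. Mean log2 CPM of the G1 identifiers also rose without overlap in palbociclib tumours, from 5.21, 5.19 and 5.29 to 5.40, 5.35 and 5.31. In vehicle tumours it went from 5.28, 5.40 and 5.30 to 5.29, 5.46 and 5.39. For the S phase identifiers it overlapped in palbociclib tumours, at 4.70, 4.73 and 4.67 initially and 4.82, 4.72 and 4.86 after recovery. At an unadjusted edgeR p under 0.05, 10 of 80 G1, 10 of 153 S phase and 10 of 102 G2/M identifiers were higher in palbociclib tumours, beside 404 of all 13055 genes. In either direction they were 13, 12 and 10 in palbociclib tumours, beside 730 of all genes. In vehicle tumours they were 5, 8 and 8, beside 1267. The handling of reads that fit both genomes is not stated, and its part in these values was not tested.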
